A study of Mus musculus with 10 samples.

Results

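The histone genes of mouse embryonic stem cells were followed by nascent RNA over 6 h of SOX2 loss. A histone TU was any transcribed unit of the deposited table, annotated with a gene symbol, whose symbol matched the mouse histone names (Hist1h to Hist4h, H2af, H3f3, H1f or the newer histone names) and which held more than 10 fragments in at least 2 of the 10 libraries. Of the 63 TUs whose symbols matched, 61 met that filter, out of 28459 TUs tested and 40779 in the table. They comprised 52 TUs named for the replication-dependent histone clusters (42 Hist1, 9 Hist2 and 1 Hist3 names, called clustered here although Hist1h2al, among the 42, lies outside them) and 9 TUs of single-copy variant genes. The remaining matches, Hist3h2a with 0 to 3 fragments per library and H2afy3 with 1 to 9, were not tested.

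The cells were E14 embryonic stem cells in which both the control and the depleted groups carried SOX2 fused to an FKBP degron, kept in serum-free medium with LIF and inhibitors of MEK and GSK3. TT_chem-seq captures RNA made during a short pulse of 4-thiouridine, here 2 mM for 10 min, so that it reads synthesis rather than the stored message. The NT group received DMSO and the other groups 500 nM of dTAG-13, which marks the fusion protein for degradation, for 0.5, 1, 2 or 6 h post depletion (hpd), with 2 libraries a group. All libraries came from the same tagged line, untagged cells given dTAG-13 were not analysed here, and no label says whether replicates were separate cultures, so that p-values measure only the spread between these libraries. SOX2 is removed as a protein, which nascent RNA does not measure. Library totals ran from 11131490 to 25854106 fragments. The 10 pluripotency markers examined summed to 3647 to 4747 CPM (fragments scaled to each library's TMM-adjusted total) per library, and the 8 markers of differentiated lineages found in the table, of 12 looked for, to 14.9 to 20.6 CPM in NT, 28.2 to 29.0 after 0.5 h, 23.1 to 26.4 after 1 h, 23.6 to 27.7 after 2 h and 20.3 to 23.2 after 6 h. Of the pluripotency markers 1, 3, 5 and 6 of 10 were called lower at 0.5, 1, 2 and 6 hpd, beside 0.813%, 3.57%, 5.34% and 7.75% of TUs with a symbol. Of the 5 lineage markers tested, 1, 1, 2 and 0 were called higher, beside 0.834%, 3.55%, 6.88% and 10.4%. The part of these changes in the histone values was not tested. All comparisons with NT share the same 2 NT libraries.

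Core histones H2A, H2B, H3 and H4 form the nucleosome, and linker histone H1 binds where DNA enters and leaves it. The clustered genes are intronless, are transcribed in S phase to package newly copied DNA, and make mRNAs that end in a conserved stem-loop instead of a poly(A) tail. Variant genes such as H3f3a, H3f3b and H2afz are transcribed through the cell cycle, make polyadenylated mRNAs, and encode histones that can be placed in chromatin outside replication. Not every gene of the variant class here need share all of these traits.

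The sequences were searched for features by which the classes differ. The form searched for was a stem of 6 perfectly paired bases starting GG around a loop of 4 starting TT or TC. The window ran from 150 bases inside to 60 bases beyond the annotated gene end. A match was found in 51 of the 54 clustered genes named in these TUs and in 0 of the 9 variant genes. No match says only that these letters were not in that window. A stem-loop nearer the start would lie outside it in genes annotated to a longer end, such as H2afx (1363 bp) and Hist2h2be (2667 bp). The forms below are given because they are the mark of a replication-dependent histone mRNA, with the stem in capitals, in RefSeq sequence of GRCm38.p6 (mm10). That of Hist1h1e lies at chr13:23621782-23621797 on the minus strand.
Stem-loop of Hist1h1e and 32 further genes: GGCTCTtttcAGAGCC
Stem-loop of 9 genes: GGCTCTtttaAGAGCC
Stem-loop of Hist1h4c and 3 further genes: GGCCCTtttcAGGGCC
Stem-loop of 2 genes: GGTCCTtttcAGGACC
The other forms were held by 1 gene each. Hist2h2be, Hist1h2an and Hist1h2al were the clustered genes with no match. Hist1h2al lies outside the clusters (its TU spans chr13:51201395-51203564, minus strand) and carries the current name H2af-ps2, a transcribed pseudogene.

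Promoter sequences of 250 bases before the start were found for 48 of the 54 clustered and 8 of the 9 variant genes. The following motifs were searched on both strands: TATAAA (the TATA box), CCAAT (bound by NF-Y), ATTTGCAT (the octamer, bound by POU factors and long known from H2B promoters) and ACAAT (the core of SOX motifs, which shares CAAT with CCAAT). Of the clustered promoters, 54.2% held TATAAA, 85.4% CCAAT, 27.1% ATTTGCAT and 33.3% ACAAT, beside 12.97%, 34.5%, 1.61% and 28.3% of 27025 promoters, 1 a gene. CCAAT was in every H1, H2A and H2B promoter, but in 7 of 9 H3 and 2 of 7 H4 promoters. The octamer was in 6 of 12 H2A and 7 of 14 H2B promoters and in 0 of the H1, H3 and H4 promoters. Some H2A and H2B genes share 1 region between their starts, as Hist1h2ae and Hist1h2bg do. The same octamer is then counted in both types. Among the 8 variant promoters, 1 held TATAAA, 5 CCAAT, 1 the octamer and 4 ACAAT. A match describes letters and is not evidence of binding. The 140 bases before the start are shown for a linker, a core H2B, a core H4 and a variant gene whose values are given further on, with the first 3 motifs in capitals on either strand.
Hist1h1e, chr13:23622559-23622698, minus strand: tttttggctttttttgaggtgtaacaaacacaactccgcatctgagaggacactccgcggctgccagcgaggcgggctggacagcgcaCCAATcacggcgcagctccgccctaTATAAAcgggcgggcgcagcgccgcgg
Hist2h2bb, chr3:96269560-96269699, plus strand: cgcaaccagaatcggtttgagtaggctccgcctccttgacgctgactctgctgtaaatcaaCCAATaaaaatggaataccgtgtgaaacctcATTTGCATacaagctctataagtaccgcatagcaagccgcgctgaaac
Hist1h4c, chr13:23698459-23698598, minus strand: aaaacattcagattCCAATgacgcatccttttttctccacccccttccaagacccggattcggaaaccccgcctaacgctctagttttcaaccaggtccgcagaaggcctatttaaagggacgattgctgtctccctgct
H3f3b, chr11:116024505-116024644, minus strand: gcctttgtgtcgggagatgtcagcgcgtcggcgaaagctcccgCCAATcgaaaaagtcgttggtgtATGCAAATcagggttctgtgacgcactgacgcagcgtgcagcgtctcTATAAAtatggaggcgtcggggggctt
Hist1h1e held CCAAT and TATAAA, Hist2h2bb CCAAT and the octamer, and Hist1h4c CCAAT alone. Hist1h4c was 1 of the 2 H4 genes with CCAAT. H3f3b held all 3 motifs, the octamer on the other strand, and was the only one of the 8 variant promoters with a TATAAA or an octamer.

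A TU is not the same as its gene. Clustered histone genes had a median annotated length of 483 bp, and their TUs one of 5700 bp, with a median run of 4027 bp past the annotated end. Of the 52 clustered TUs, 5 spanned more than 1 annotated histone gene of the same strand: Hist1h3f spanned 4, among them H4 and H2A genes, and the TU of Hist1h3c, Hist1h4a and Hist1h3a also 4. A further 8 held no annotated histone gene in full, to within 10 bp, among them Hist2h3c1, Hist1h4b and Hist1h2al. Variant TUs ran further still, by a median of 9231 bp and by 51621 bp for H2afz. Near-identical copies also limit the clustered values, because reads were filtered on mapping quality. More than 50% of the 50-base words of the gene occurred elsewhere in the genome for 30 of 54 clustered genes and for 0 of the 8 variant genes so examined. The medians were 56.3% and 5.30%, and Hist2h3c1, Hist2h3c2 and Hist1h4n had no unique 50-base word. Values of such TUs can rest on their flanks.

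In NT cells the clustered TUs had a median of 7.24 CPM per kb of TU, between 0.307 and 184, and the variant TUs 4.37, between 0.773 and 12.5 (means of 2 libraries). By type the medians were 18.3 CPM per kb for linker H1, 7.93 for H2A, 4.22 for H2B, 9.39 for H3 and 8.37 for H4. The highest level was that of Hist2h2bb, an H2B gene with a short TU of 614 bp, at 184 CPM per kb. The linker genes Hist1h1a, Hist1h1b, Hist1h1c and Hist1h1d lay close together, at 18.6, 20.3, 19.6 and 18.04 CPM per kb, and Hist1h1e below them at 5.08. The genes of testis-specific histones held few fragments, on means of 20.9, 27.4 and 30.9 per library for Hist1h1t, Hist1h2aa and Hist1h2ba, at 0.411, 1.17 and 1.36 CPM per kb. Among the variants, H3f3b (12.5) and H2afx (8.22), the H2A.X of the DNA damage response, were highest, and H2afy2, a macroH2A gene, lowest.

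**Figure D1:**
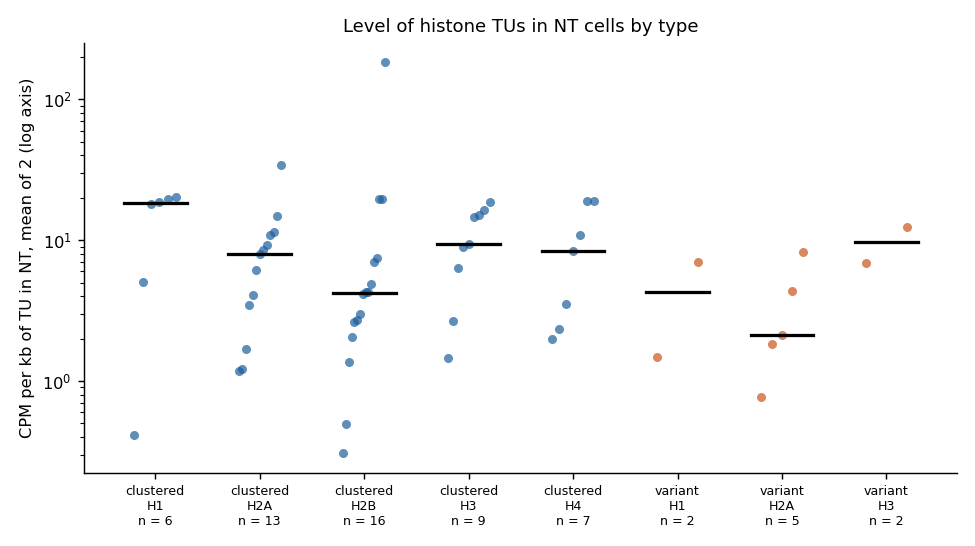
Level of each tested histone TU in the NT group, in CPM per kb of TU on a log axis (mean of 2 libraries), by class and type; points are TUs and bars medians, and the TU named for Hist1h3c, Hist1h4a and Hist1h3a is left out, and other TUs that span several genes stand under the type of their name. Clustered H1 TUs have the highest median (18.3) and Hist2h2bb the highest single value (184).

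Summed over the 52 clustered TUs, nascent histone RNA was lower on average at every time after depletion than in NT cells, in groups that overlapped NT except after 1 h. The sums were 2805 and 3315 CPM in the NT libraries, 2457 and 2977 after 0.5 h, 2573 and 2527 after 1 h, 2308 and 2807 after 2 h, and 3132 and 2321 after 6 h. Both libraries lay below both NT libraries after 1 h, by a small margin from the lower one, and the groups overlapped at the other times. Against the NT library of the same replicate number, each depleted library was lower at 0.5, 1 and 2 hpd. After 6 h replicate 1 was higher and replicate 2 lower. No label says whether these numbers mark pairs. As means the values were 3060 ± 361 (SD, n = 2) in NT and 2550 ± 32.8 after 1 h, with an exact permutation test, two-sided, at p = 0.333, the smallest that 2 libraries against 2 can give. In bulk cultures, fewer cells in S phase and less histone RNA made per cell cannot be told apart.

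The variant sum stayed closer to its NT level. It was 706 and 812 CPM in NT, 665 and 751 after 0.5 h, 710 and 729 after 1 h, 721 and 771 after 2 h, and 791 and 702 after 6 h, and each depleted group overlapped the NT range. The clustered sum was 3.97 and 4.08 times the variant sum in the NT libraries and between 3.20 and 3.96 times in the 8 depleted libraries. Every depleted library thus lay below both NT libraries in that ratio, 0.5 hpd replicate 2 and 6 hpd replicate 1 only just, and at each time the exact permutation test gave the smallest p it can, 0.333. With 2 libraries a group this test cannot pass 0.05.

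**Figure D2:**
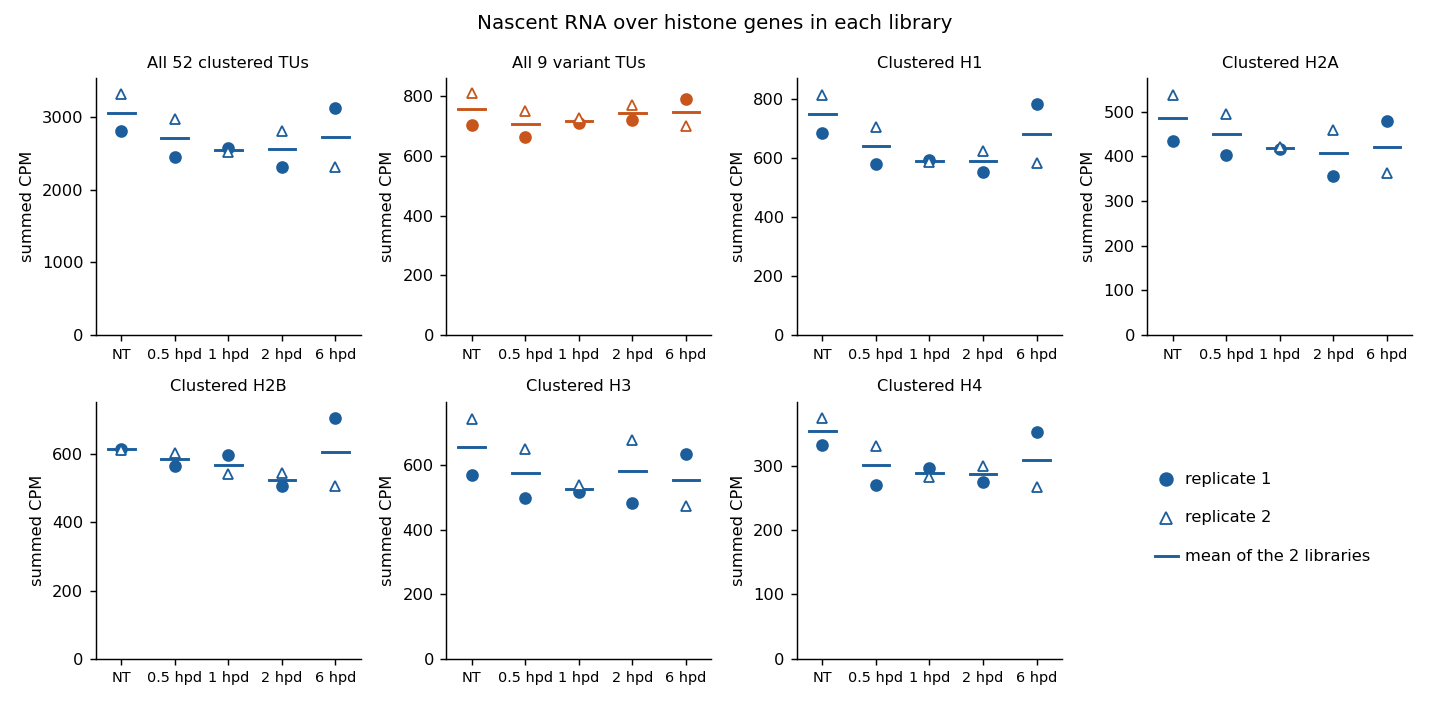
Summed CPM of the clustered TUs, of the variant TUs and of the clustered TUs of each histone type in every library (filled circles replicate 1, open triangles replicate 2, bars means of 2). The 1 hpd libraries of the clustered sum sit together below both NT libraries, while the 6 hpd libraries lie on either side of the NT mean.

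Single histone TUs were tested with edgeR's quasi-likelihood test and Benjamini-Hochberg adjustment over all 28459 TUs, and called at an adjusted p under 0.05. No histone TU was called in either direction at 0.5, 1 or 6 hpd, and 1 was called after 2 h, as lower. Of all TUs tested, 1.31% were called after 0.5 h, 5.75% after 1 h, 9.83% after 2 h and 15.8% after 6 h. DESeq2 called 0 histone TUs at each time. With the replicate number as a block, edgeR called a few more at 1, 2 and 6 hpd, named at the end, and more of all TUs too. At an unadjusted p under 0.05, 1 histone TU was higher and 3 lower after 0.5 h, 1 and 10 after 1 h, 0 and 10 after 2 h, and 2 and 1 after 6 h. Of all TUs, 5.29%, 9.88%, 12.6% and 17.0% were past that value as lower at the 4 times, and 4.32%, 8.14% and 13.6% as higher after 0.5, 1 and 6 h and 3420 of 28459 after 2 h. The histone TUs past it as lower, 4.92%, 16.4%, 16.4% and 1.64% of them, were thus a larger share than of all TUs after 1 and 2 h and a smaller one after 0.5 and 6 h, and those past it as higher a smaller share at each time. Between successive times, 0.5 to 1 hpd, 1 to 2 hpd and 2 to 6 hpd, edgeR and DESeq2 both called 0 histone TUs, beside 0.109%, 0.218% and 0.777% of all TUs with edgeR. At an unadjusted p under 0.05 there were 0, 0 and, from 2 to 6 hpd, 6 higher and 1 lower. Of all TUs, 5.34% and 5.80% were past that value in either direction at the first and second step, and 5.07% as higher and 6.12% as lower from 2 to 6 hpd, where the histone TUs stood at 9.84% and 1.64%. A joint test of the 4 times against NT called 1 histone TU, against a background of 12.3%.

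Although almost none passed the test singly, the clustered TUs leaned one way. Their median log2 fold change against NT was -0.16 after 0.5 h, -0.21 after 1 h, -0.25 after 2 h and -0.12 after 6 h, and 41, 46, 45 and 37 of the 52 were below 0. The medians over all tested TUs were -0.02, -0.04, -0.04 and -0.04, and over TUs with a symbol and a mean of at least 50 fragments 0.01, 0.04, 0.06 and 0.08. For the 9 variant TUs the medians were -0.09, -0.09, 0.00 and -0.09. These are counts over genes of the same libraries and carry no test of their own, and neighbouring clustered genes can share a promoter region. Counted by range, 9, 27, 22 and 4 of the 52 clustered TUs had both libraries below both NT libraries at 0.5, 1, 2 and 6 hpd, beside 19.0%, 26.7%, 26.6% and 31.0% of all TUs. In the variant class the counts were 2, 3, 2 and 4 of 9.

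**Figure D3:**
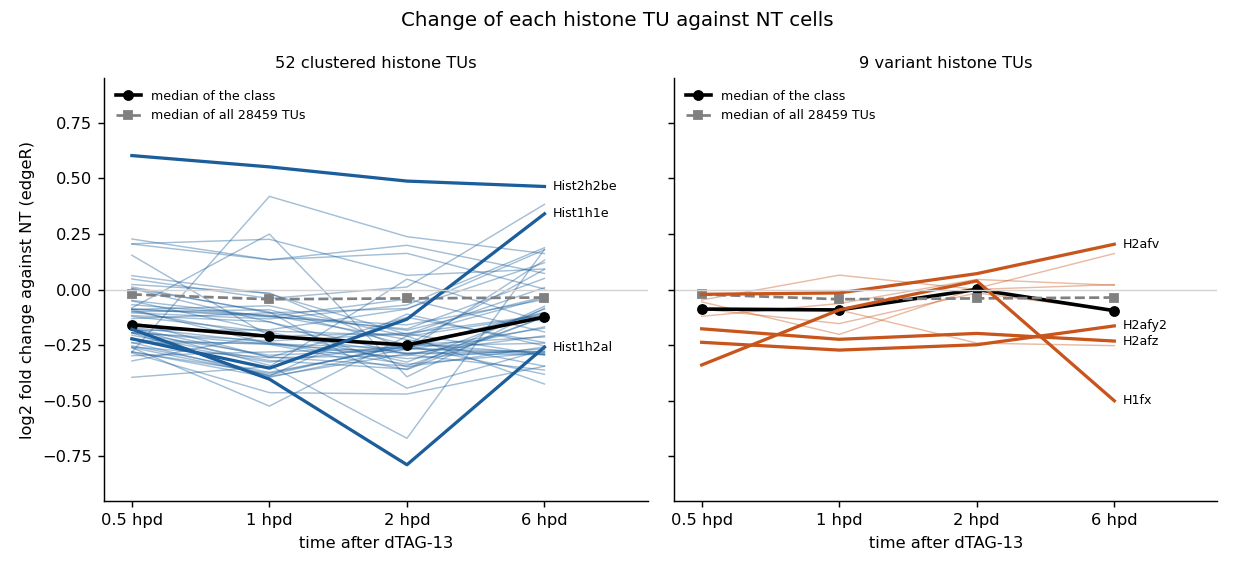
Log2 fold change against NT (edgeR) of the 52 clustered and the 9 variant TUs at each time after dTAG-13; thin lines are TUs, the black line is the median of the class and the dashed grey line that of all tested TUs. The clustered median is -0.25 after 2 h and is -0.12 after 6 h, and Hist1h1e crosses from below 0 to above it.

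The size of the lean depended on single libraries, and at 6 hpd its sign did too. Without NT replicate 2, the higher of the NT libraries for most clustered TUs, the clustered medians were -0.05, -0.12, -0.13 and -0.02, and without NT replicate 1 they were -0.22, -0.28, -0.33 and -0.22. At 0.5 hpd the median was -0.02 without replicate 1 of that time and -0.28 without replicate 2, and after 2 h -0.08 and -0.38 in the same order. After 1 h it was -0.24 and -0.19 in that order. The 1 hpd median stayed below that of all TUs with any library left out, between -0.28 and -0.12. At 6 hpd it was -0.38 without replicate 1 and 0.072 without replicate 2, so that no direction can be given for 6 hpd. Without 0.5 hpd replicate 1 the median at that time equalled that of all TUs (-0.02), with 30 of 52 below 0. The 6 hpd median was also -0.22 over the 47 clustered TUs that averaged 50 fragments or more. Without Hist1h2al the 4 medians were -0.15, -0.21, -0.25 and -0.12.

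The clustered TUs moved together between the 6 hpd replicates, and in part between those of other groups. At 6 hpd, 51 of 52 were higher in replicate 1 than in replicate 2, with a median log2 ratio of replicate 2 over replicate 1 of -0.45, beside 0.01 over all tested TUs. In NT, 38 of 52 were higher in replicate 2 (median 0.18), after 0.5 h 44 (0.25) and after 2 h 43 (0.20), whereas after 1 h 19 were (-0.05). Over all TUs the median ratio was 0.03 or less in size in each group, and over the 30 tested genes of S phase and the replication fork between -0.08 and -0.02, both smaller in size than the histone medians except after 1 h. The Hist1 genes on chromosome 13 and the Hist2 genes on chromosome 3 shared the movement: relative to each TU's mean over the 10 libraries, their medians were 0.21 and 0.24 in 6 hpd replicate 1 and -0.22 and -0.25 in 6 hpd replicate 2. Between the same replicates, 18 tested factors of histone gene transcription and mRNA 3' processing had median log2 ratios of -0.12 in NT and 0.07 after 6 h. For 28 tested histone chaperones and exchange factors they were -0.07 and 0.05. Whether the share of cells in S phase differed between these libraries was not measured.

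**Figure D4:**
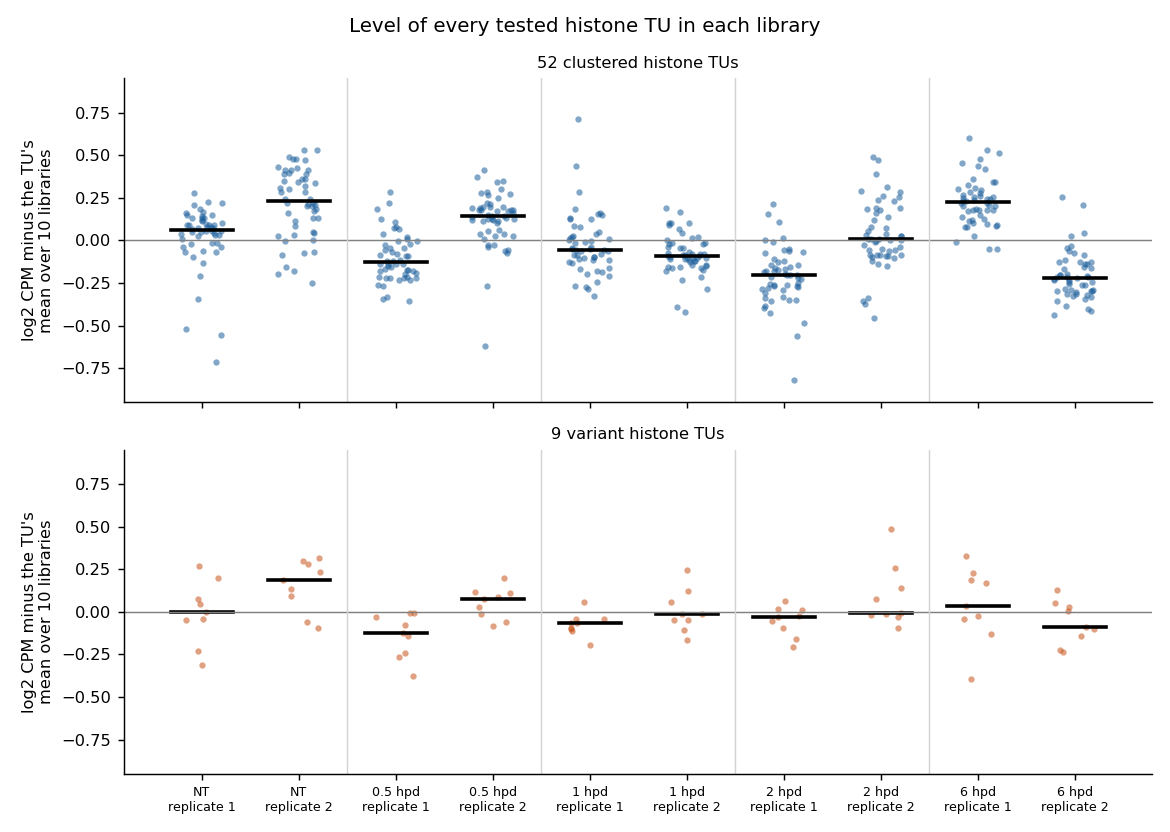
Log2 CPM of each histone TU minus its mean over the 10 libraries, for clustered TUs (upper panel) and variant TUs (lower panel); points are TUs and bars medians. The clustered TUs differ most between the 6 hpd libraries, with medians of 0.22 and -0.22, and the variant medians there are 0.03 and -0.09.

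The linker histone genes, whose H1 proteins compact nucleosome arrays, had medians of -0.21, -0.33 and -0.35 over 6 TUs at 0.5, 1 and 2 hpd. All 6 were below 0 at those times, also with any library left out after 1 and 2 h (medians from -0.47 to -0.17), whereas 5 of 6 were at 0.5 hpd without its replicate 1 or NT replicate 2. After 6 h the median was -0.10, with 4 of 6 below 0, and it was -0.32 without replicate 1 of that time and 0.10 without replicate 2. Hist1h1a, the linker TU with the highest mean CPM, was at 191 and 205 CPM in NT, 163 and 189 after 0.5 h, 166 and 155 after 1 h, 149 and 163 after 2 h, and 207 and 157 after 6 h. It lay below the NT range in all libraries from 0.5 to 2 hpd and straddled it after 6 h, and its log2 fold change after 2 h was -0.34 ± 0.13 (SE), with an edgeR adjusted p of 0.109.

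Hist1h1e, which encodes the linker histone H1.4, was the histone TU called in the joint test (edgeR adjusted p = 0.011). It was at 38.2 and 36.0 CPM in NT, 30.2 and 33.7 after 0.5 h, 29.2 and 28.9 after 1 h, 32.4 and 35.2 after 2 h, and 53.4 and 40.7 after 6 h. Both libraries were below both NT libraries at 0.5, 1 and 2 hpd and above them after 6 h. Against NT its log2 fold change was -0.35 ± 0.13 (SE) after 1 h, with an edgeR adjusted p of 0.154, and 0.34 ± 0.13 after 6 h, with an adjusted p of 0.0864. The latter rested on single libraries: it was 0.15 (adjusted p = 0.556) without 6 hpd replicate 1 and 0.53 (adjusted p = 0.029) without 6 hpd replicate 2. From 1 to 6 hpd, a comparison added after these values were seen, it rose 1.62-fold (log2 0.69 ± 0.13, edgeR adjusted p = 0.00515). That comparison called 4.88% of all TUs and 1 of the 61 histone TUs, and DESeq2 called Hist1h1e there and in the joint test too. The joint call was lost without 6 hpd replicate 1, the higher library (adjusted p = 0.148), and the call from 1 to 6 hpd without it or without either 1 hpd library (adjusted p = 0.0517 to 0.101). The rise from 2 to 6 hpd had an adjusted p of 0.119.

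From 1 to 6 hpd the 6 clustered linker TUs had a median of 0.21, and Hist1h1e alone was called. All 6 were above 0 with both 6 hpd libraries, but without 6 hpd replicate 1 only 2 were and the median was -0.028. Against NT the other linker genes, named here after their values were seen, differed in direction after 6 h. Hist1h1t, the testis-specific linker, was at 1.21 and 1.67 CPM in NT and 1.76 and 1.51 after 6 h (log2 0.18 ± 0.36, SE; edgeR adjusted p = 0.773). Hist1h1d was at 170 and 206 CPM in NT and 194 and 141 after 6 h, with a log2 fold change of -0.17 ± 0.15 (SE, edgeR adjusted p = 0.497), and Hist1h1c at 131 and 179 in NT and 137 and 106 after 6 h, with -0.35 ± 0.16 (adjusted p = 0.170). Of the 52 clustered TUs, 3 had both 6 hpd libraries above both NT libraries: Hist1h1e, Hist1h2bf and Hist2h2be, of which Hist1h2bf and Hist2h2be were named after their values were seen. Of all TUs, 27.5% had that pattern. Hist1h2bf, an H2B gene, was at 14.0 and 13.8 CPM in NT and 21.3 and 15.1 after 6 h (log2 0.38 ± 0.16, SE; edgeR adjusted p = 0.117).

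The H2A TUs had medians of -0.09, -0.21, -0.21 and -0.19 at 0.5, 1, 2 and 6 hpd, and 10, 12, 12 and 10 of 13 were below 0. After 0.5 h the median became 0.090 without replicate 1 of that time and after 2 h 0.017 without replicate 1, with 3 and 5 of 13 below 0. Relative to each TU's mean over the 10 libraries, the H2A medians were 0.05 and 0.21 in NT and 0.20 and -0.26 after 6 h. Only replicate 2 of 6 hpd thus lay below both NT values. Hist1h2ah, whose long TU spans 3 histone genes, had the highest mean CPM, with 180 and 246 CPM in NT, 167 and 211 after 0.5 h, 178 and 183 after 1 h, 157 and 185 after 2 h, and 199.98 and 154 after 6 h. The groups overlapped at every time. Its log2 fold change was lowest after 2 h, -0.31 ± 0.16 (SE), with an edgeR adjusted p of 0.253.

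Hist1h2al, the pseudogene outside the clusters, was the only histone TU called against NT, after 2 h. It was at 6.33 and 8.65 CPM in NT, 5.58 and 7.95 after 0.5 h, 4.89 and 6.38 after 1 h, 3.99 and 4.68 after 2 h, and 6.88 and 5.65 after 6 h, and only the 2 hpd libraries lay wholly below the NT range. It fell to 0.579 of NT after 2 h (log2 -0.79 ± 0.23, SE; edgeR adjusted p = 0.0451). The call lies close to the threshold: it had an adjusted p of 0.0684 in DESeq2, and in edgeR of 0.350 when NT replicate 2 was left out and 0.264 when 2 hpd replicate 1 was, and the call was lost without either 1 hpd library, either 6 hpd library or 2 hpd replicate 2 as well.

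With all libraries, the H2B TUs had medians nearer 0 than the other types after 1 and 6 h. Their medians were -0.08, -0.10, -0.20 and 0.01 at 0.5, 1, 2 and 6 hpd, with 10, 13, 13 and 8 of 16 below 0 (2 of 16 after 6 h without replicate 2 and 14 of 16 without replicate 1), and their summed level was 614 and 612 CPM in NT against 505 and 543 after 2 h and 706 and 506 after 6 h. Relative to each TU's mean over the 10 libraries, the H2B medians were 0.08 and 0.03 in NT and 0.27 and -0.14 after 6 h. The rank at 6 hpd thus rests on 2 libraries that lay on either side of NT. Hist2h2bb was at 124 and 102 CPM in NT, 107 and 104 after 0.5 h, 116 and 95.6 after 1 h, 92.7 and 97.2 after 2 h, and 143 and 97.9 after 6 h. It was below both NT libraries after 2 h alone (log2 -0.25 ± 0.15, SE; edgeR adjusted p = 0.346). Hist2h2be, the H2B gene of the Hist2 group without a stem-loop in the window searched, went the other way: 2.09 and 2.62 CPM in NT, 3.67 and 3.42 after 0.5 h, 3.83 and 3.07 after 1 h, 3.64 and 2.92 after 2 h, and 3.72 and 2.80 after 6 h. All 8 depleted libraries were above both NT libraries, on a mean of 53.9 fragments a library, and its log2 fold changes of 0.60 ± 0.26 (SE) to 0.46 ± 0.26 had edgeR adjusted p of 0.249 to 0.433. The share of all TUs wholly above NT at every time was not counted.

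The H3 TUs had medians of -0.24, -0.35, -0.20 and -0.25, and 7, 7, 6 and 7 of 9 were below 0. After 2 h the median became 0.12, with 2 of 9 below 0, without replicate 1 of that time. Relative to each TU's mean over the 10 libraries, the H3 medians were 0.05 and 0.36 in NT. They were -0.20 and 0.18 after 0.5 h and 0.18 and -0.30 after 6 h, so that 1 library of each lay below both NT values. Their replicates differed more than those of the H2B TUs in NT, 0.5 and 2 hpd cells: the median log2 ratio of replicate 2 over replicate 1 was 0.40 in NT, 0.35 after 0.5 h, 0.06 after 1 h, 0.52 after 2 h and -0.47 after 6 h, beside -0.04, 0.07, -0.14, 0.06 and -0.47 for H2B. Hist1h3f, whose TU spans 4 histone genes, was at 195 and 240.2 CPM in NT, 160.1 and 204 after 0.5 h, 163 and 170.1 after 1 h, 152 and 216 after 2 h, and 200.3 and 156 after 6 h. It was below the NT range after 1 h alone, by -0.38 ± 0.17 (log2, SE; edgeR adjusted p = 0.244).

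The 7 H4 TUs had medians of -0.24, -0.28, -0.29 and -0.21, and all 7 were below 0 at each of the 4 times with all libraries. After 6 h this rested on 1 library: without 6 hpd replicate 2 the median was 0.0057, with 3 of 7 below 0. At 0.5 and 1 hpd 6 of 7 were below 0 without NT replicate 2, and after 2 h all 7 with any library left out. Hist1h4c, the H4 TU with the highest mean CPM, was at 62.9 and 69.0 CPM in NT, 52.1 and 63.8 after 0.5 h, 51.9 and 48.8 after 1 h, 48.5 and 59.6 after 2 h, and 63.9 and 50.6 after 6 h. It lay below both NT libraries at 1 and 2 hpd and overlapped them at 0.5 and 6 hpd. Its log2 fold change after 1 h was -0.39 ± 0.14 (SE), and the edgeR adjusted p 0.134.

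The genes of the replacement histone H3.3 gave no call at any time. H3f3a was at 155 and 144 CPM in NT, 147 and 142 after 0.5 h, 156 and 156 after 1 h, 151 and 147 after 2 h, and 148 and 155 after 6 h. The groups overlapped except after 1 h, where both libraries were just above NT, and its log2 fold changes lay between -0.05 ± 0.10 (SE) and 0.07 ± 0.10, with edgeR adjusted p from 0.768 to 0.997. H3f3b, with 185 and 286 CPM in NT, 191 and 242 after 0.5 h, 223 and 228 after 1 h, 232 and 254 after 2 h, and 269 and 208 after 6 h, was within its NT range throughout, but that range was wide and the SE 0.18.

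Of the H2A.Z genes, whose histone marks promoters, neither passed the test at any time. H2afz was at 100.4 and 96.1 CPM in NT, 87.1 and 86.9 after 0.5 h, 83.7 and 84.6 after 1 h, 84.5 and 87.0 after 2 h, and 85.0 and 82.5 after 6 h. All 8 depleted libraries lay below both NT libraries and near each other, between 82.5 and 87.1 CPM. At single times 19.0% to 31.0% of all TUs lay wholly below NT, and the share that did so at every time was not counted. The log2 fold change of H2afz after 6 h was -0.23 ± 0.09 (SE), 0.852 of NT, with an edgeR adjusted p of 0.106 after 6 h and 0.609, 0.213 and 0.204 at the earlier times. This TU runs 51621 bp past the gene, so most of its length is not H2afz. H2afv was at 82.6 and 77.5 CPM in NT, 78.3 and 79.5 after 0.5 h, 76.5 and 81.9 after 1 h, 86.5 and 81.8 after 2 h, and 94.1 and 90.4 after 6 h. It overlapped NT until 2 hpd and was above it after 6 h (log2 0.20 ± 0.10, SE; edgeR adjusted p = 0.168).

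**Figure D5:**
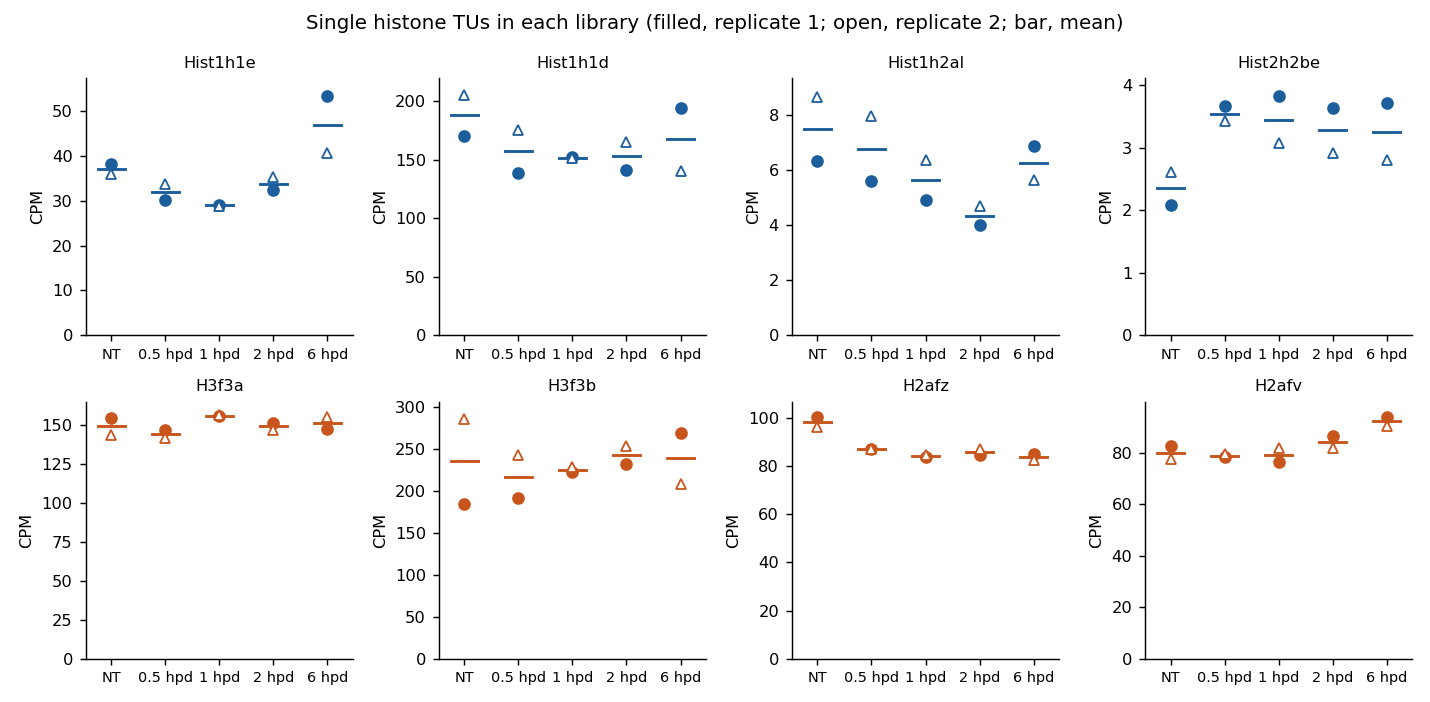
CPM of 4 clustered TUs (blue) and 4 variant TUs (orange) in each library (filled circles replicate 1, open triangles replicate 2, bars means of 2). Hist1h1e lies below NT until 2 hpd and above it after 6 h, Hist2h2be above and H2afz below NT in all 8 depleted libraries, and H3f3a near its NT level.

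H2afy2, which encodes a macroH2A, was at 42.7 and 37.9 CPM in NT, 32.5 and 36.1 after 0.5 h, 33.9 and 32.9 after 1 h, 34.7 and 33.1 after 2 h, and 36.3 and 35.6 after 6 h. All depleted libraries were below NT here too, and the lowest log2 fold change, -0.27 ± 0.11 (SE) after 1 h, had an edgeR adjusted p of 0.193. H2afx was at 91.9 and 108 CPM in NT and overlapped that range at every time but 1 hpd, with 88.2 and 91.3 CPM there (log2 -0.15 ± 0.17, SE; edgeR adjusted p = 0.683). H2afj, an H2A gene outside the clusters, was at 29.0 and 36.9 CPM in NT and 27.4 and 27.9 after 6 h, below NT at that time (log2 -0.25 ± 0.13, SE; edgeR adjusted p = 0.216).

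The replacement linker genes H1f0 and H1fx lay at 7.03 and 1.48 CPM per kb in NT. H1f0, the H1.0 of slowly dividing cells, was at 14.2 and 19.6 CPM in NT, 15.1 and 17.7 after 0.5 h, 14.6 and 14.8 after 1 h, 16.4 and 17.5 after 2 h, and 20.9 and 16.95 after 6 h, and overlapped NT throughout. H1fx was at 5.59 and 6.47 CPM in NT, 4.06 and 5.73 after 0.5 h, 4.95 and 6.32 after 1 h, 4.95 and 7.48 after 2 h, and 4.00 and 4.48 after 6 h. Only the 6 hpd libraries were both below NT, by -0.50 ± 0.25 (log2, SE) on a mean of 89.3 fragments a library, with an edgeR adjusted p of 0.188.

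Of the genes that act on histones, few passed the test. Among 18 tested factors of histone gene transcription and mRNA 3' processing, of 19 listed, 0 were called lower at any time and 1 was called higher after 2 and 6 h, beside the 6.88% and 10.4% of TUs with a symbol called higher then, so that the list lay at or below the background. That gene was Ncbp2, a subunit of the nuclear cap-binding complex, at 79.6 and 68.4 CPM in NT and 141 and 119 after 6 h (log2 0.81 ± 0.11, SE). Npat and Slbp are given for their roles. Npat, the coactivator that sits at the clusters, was at 133 and 116 CPM in NT and 151 and 159 after 6 h, with an edgeR adjusted p of 0.131. Slbp, which binds the stem-loop, was at 126 and 115 CPM in NT and 128 and 141 after 6 h, with an adjusted p of 0.292. The median log2 fold change of this list was 0.05, 0.08, 0.09 and 0.10 at 0.5, 1, 2 and 6 hpd.

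Among 28 tested histone chaperones and exchange factors, of 30 listed, 0, 1, 2 and 3 were called higher at 0.5, 1, 2 and 6 hpd and 0 lower. The 3 of 28 after 6 h lie near the 10.4% of all TUs with a symbol called higher then. Rbbp7, a histone-binding subunit shared by assembly and deacetylase complexes, was at 134 and 153 CPM in NT and 223 and 242 after 6 h (log2 0.69 ± 0.11, SE). Hat1, which acetylates new H4, had a log2 fold change of 0.47 ± 0.12 after 6 h, and Ubn2, a subunit of the HIRA complex that deposits H3.3, 0.44 ± 0.14 (edgeR adjusted p = 0.0127 and 0.0399). Of 30 tested genes of S phase and the replication fork, of 32 listed, Orc1 was called higher after 1 h (log2 0.48 ± 0.10, SE; edgeR adjusted p = 0.0107) and Cdt1 lower after 6 h (-0.42 ± 0.13; edgeR adjusted p = 0.0449). Both encode origin licensing factors. These single calls of 30 stand beside 3.55% of TUs with a symbol called higher after 1 h and 7.75% called lower after 6 h, and are not above the background. The medians of that list were 0.01, 0.03, 0.01 and -0.0049. These lists were drawn up with earlier results of these data known.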

How the data were processed

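TT_chem-seq was measured in 10 libraries, 2 for each of 5 groups. Per the labels and the study's methods, reads were placed on mm10 by the authors using BWA 0.7.17-r1188. They kept well-mapped reads (SAMtools 1.10), dropped duplicates (Picard 2.12.0), split alignments by strand, defined TUs from pooled data and counted fragments in each. The deposited values are raw counts per TU, without normalization. Counts of all tested TUs were fitted in edgeR 4.0.16 (R 4.3.3) scaled by TMM, with every group given its own coefficient and all 10 libraries in the fit. The common biological coefficient of variation was 10.0%. CPM use the TMM factors. DESeq2 1.42.0, other scalings and filters, the compared libraries only, the replicate number as a block and each library left out were alternatives. Library totals limit precision, and low TUs most. Named were all variant TUs, the highest clustered TU of each type, called TUs and, in each gene list, called genes. Outside that rule, the other linker TUs, Hist1h2bf and Hist2h2be were named after their values were seen, and Npat and Slbp for their roles. The members, lists and tests were chosen with earlier results of these data known. Sequences are RefSeq, GRCm38.p6, read with pysam 0.24.0. A replicate pair differed by 3.09 to 11.0 in chi-square per degree of freedom, so no library duplicated the other of its group.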

Additional observations from a re-analysis of the deposited data

Results flagged for a closer look

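Hist1h1e differed between times of depletion. Both libraries were below both NT libraries at 0.5, 1 and 2 hpd and above them at 6 hpd, where its log2 fold change against NT was 0.34, and 0.15 without 6 hpd replicate 1 or 0.53 without 6 hpd replicate 2. The difference between 6 and 1 hpd, tested directly with edgeR after the values had been seen, was 0.69 on the log2 scale. With 2 libraries in each group no sample could be examined as far from its group. The clustered TUs as a set were higher in replicate 1 than in replicate 2 at 6 hpd (median log2 ratio of replicate 2 over replicate 1 -0.45), and this was not tested against any property of the cultures.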

How the results depend on the processing

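Of 7241 values of single histone TUs under alternatives, 6727 kept their direction and their side of the threshold, and no called value changed direction. The count called lower at 1 hpd, 0, became 6 when only the libraries compared were fitted (Hist1h3f, Hist1h1c, Hist1h1a, Hist1h3e, Hist1h4c and the TU of Hist1h3c), where that fit called 4.44% of all TUs lower. The 1 called lower at 2 hpd became 0 with DESeq2, 3 with library totals (7.26% of all TUs) and 0 when TUs averaging under 50 fragments were dropped. It also changed with the library left out. At 6 hpd, 1 was called higher with only the libraries compared (9.77% of all TUs). There 1 was called lower with library totals, without TUs averaging under 50 fragments (H2afz in both) and with only the libraries compared. Both counts at 6 hpd changed with the library left out. With a library left out, Hist1h1e alone was called in the joint test and between 1 and 6 hpd, and not in every fit.

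The labels do not say whether replicate numbers mark a shared culture or day. Replicate differences of pairs of groups correlated at 0.07 to 0.29 over all TUs, 0.054 to 0.66 over TUs averaging at least 50 fragments and -0.047 to 0.67 over histone TUs. Over all TUs the 6 pairs among NT, 0.5, 1 and 2 hpd stood at 0.19 to 0.29. Each set had 8 of 10 pairs above 0.1, and a pairing was taken only where all were, so the numbers were not used as pairs although most groups deviated together. The pairs at or below 0.1 all included 6 hpd, so this rule cannot decide for the earlier times. Over histone TUs the pairs among NT, 0.5, 1 and 2 hpd stood at 0.38 to 0.67. With the replicate block, 2 were called lower at 1 hpd (Hist1h1c and Hist1h4c), 4 lower at 2 hpd (Hist1h2bm, Hist1h1c, Hist1h1a and Hist1h2al), 1 higher (Hist1h1e, adjusted p = 0.0348) and 2 lower (H2afz, 0.0473, and H1fx, 0.0422) at 6 hpd, 3 in the joint test and 2 higher between 2 and 6 hpd. That fit called more of all TUs too: 6.14%, 9.60% and 14.2% lower at 1, 2 and 6 hpd, 11.9% higher at 6 hpd, 24.7% in the joint test and 1.46% higher between 2 and 6 hpd. The clustered medians with the block were -0.15, -0.21, -0.25 and -0.12.

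With a library left out, the clustered median at 6 hpd ran from -0.38 to 0.072. Variant medians ran from -0.20 to -0.019 at 0.5 hpd, -0.18 to 0.034 at 1 hpd, -0.23 to 0.031 at 2 hpd and -0.18 to -0.0085 at 6 hpd. Library totals moved the median of all TUs to -0.06, -0.13, -0.16 and -0.13, the clustered medians to -0.19, -0.30, -0.35 and -0.21, and the variant medians to -0.12, -0.18, -0.11 and -0.18. Relative to all TUs the clustered median at 6 hpd was -0.09 with either scaling. Without TUs averaging under 50 fragments the clustered median at 6 hpd was -0.22. The causes were not tested.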
